A study of Mus musculus with 18 samples.

Results

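The Cyp4 genes encode cytochrome P450 enzymes of the endoplasmic reticulum that put a hydroxyl group on the last, or omega, carbon of fatty acids. The 10 genes analysed were taken by name from the liver count table, namely Cyp4a10, Cyp4a12a, Cyp4a12b, Cyp4a14, Cyp4a31, Cyp4a32, Cyp4f14, Cyp4f15, Cyp4v3 and Cyp4b1. All were among the 16245 genes of the table, and near-identical copies were also analysed as sums. Liver RNA was sequenced from 18 male wild-type C57BL/6 mice, 6 treated with vehicle, 6 treated with recombinant GDF15 and 6 pair-fed. Every mouse was put at 8 weeks of age on a NASH diet, which is rich in fat and fructose and produces a fatty, inflamed liver, and was kept at about 29 °C. GDF15, a stress-induced hormone that lowers food intake, was given under the skin once daily. The labels list doses of 0.3, 1 or 5 nmol per kg body weight without assigning a dose to each mouse. Pair-fed mice were offered the amount of food that the GDF15-treated mice had eaten on the previous day, so the comparison of GDF15 with pair-fed asks what GDF15 did at matched food intake.

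Fatty acids hydroxylated at the omega carbon are oxidised further by alcohol and aldehyde dehydrogenases to dicarboxylic acids, which peroxisomes shorten. The pathway takes a minor share of fatty acids in a fed liver and a larger share when fatty acids are abundant, and Cyp4a10 and Cyp4a14 are textbook target genes of the fatty acid receptor PPAR-alpha in rodents. Cyp4a12a and Cyp4a12b are more active in males than in females, and Cyp4f enzymes hydroxylate the inflammatory lipid leukotriene B4 as well as long-chain fatty acids and vitamin E.

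Libraries held 16508864 to 35301853 counts. Vehicle libraries ranged from 18059478 to 23215915, GDF15 libraries from 16508864 to 25001486 and pair-fed libraries from 17180057 to 35301853. PairFed replicates 1 to 3 held at most 17926397 counts and PairFed replicates 4 to 6 at least 25047723, while GDF15 replicates 1 to 3 held at least 21050932 and GDF15 replicates 4 to 6 at most 19108435. The vehicle sets overlapped, at 18059478 to 20472562 and 18411506 to 23215915, so depth does not divide all groups alike by replicate number. The labels do not say what sets the replicate numbers apart, so the values of replicates 1 to 3 and of 4 to 6 alone are given where a call differed in either set. Each set holds 3 mice per group and no label defines it, so its adjusted p values are given as a description. Albumin (Alb), the defining hepatocyte transcript, stood at 1231856 ± 124742 normalised counts in vehicle (SD, n = 6), 1646873 ± 124702 in GDF15 and 1237371 ± 246723 in pair-fed livers. Its log2 fold change in GDF15 was 0.42 ± 0.11 (SE) against vehicle (adjusted p = 0.0011, DESeq2) and 0.41 ± 0.11 against pair-fed (adjusted p = 0.0017).

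Per kilobase of transcript, Cyp4a10 and Cyp4a14 led the family in vehicle livers. Cyp4a10 stood at 3711 ± 563 normalised counts per kilobase (SD, n = 6) and Cyp4a14 at 3676 ± 829.6, values whose spreads overlapped. Cyp4v3 followed at 1819 ± 207. Cyp4f14 (1203 ± 396), Cyp4f15 (1007 ± 112) and Cyp4a12a (856 ± 186) came next, each overlapping its neighbour in the order. Cyp4a32 stood at 352 ± 61.7, on an annotated transcript that holds almost only coding sequence. Cyp4b1 (105 ± 12.1), Cyp4a31 (97.9 ± 30.4) and Cyp4a12b (64.2 ± 39.1) were lowest. In GDF15 livers Cyp4a14 stood at 6015 ± 1903 per kilobase, and Cyp4f14, at 2628 ± 392, stood above Cyp4v3 (1907 ± 286), the reverse of their order in vehicle. The share of all counts that the 10 genes took together was 0.162% ± 0.0139 in vehicle, 0.198% ± 0.0444 in GDF15 and 0.180% ± 0.0184 in pair-fed livers.

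In GDF15 against vehicle, 3 of the 10 genes rose and 0 fell at an adjusted p under 0.05 (DESeq2, Benjamini-Hochberg over all genes tested), beside 14.3% of all genes tested that rose and 15.8% that fell. Cyp4f14 was also called, that is, its absolute log2 fold change was above 1, beside 5.66% of all genes called. The genes that rose were Cyp4f14, Cyp4f15 and Cyp4a14. In GDF15 against pair-fed, 2 rose and 0 fell, namely Cyp4f14 and Cyp4f15, beside 11.8% of genes that rose and 12.2% that fell. In that comparison 0 of the 10 were called with DESeq2, beside 2.98% of all genes, and 0 with edgeR, beside 403 of 12992 genes. Of the 10, 4 had an unadjusted p under 0.05 with each tool, beside 33.8% of all genes with DESeq2 and 39.9% with edgeR. In pair-fed against vehicle 0 of 10 passed the adjusted p with DESeq2 or with edgeR, beside 0% of all genes in either direction, and 2 of 10, Cyp4a12b and Cyp4b1, had an unadjusted DESeq2 p under 0.05, beside 4.42% of all genes. The median log2 fold change of the 10 genes was 0.31, 0.11 and 0.14 in these comparisons, beside -0.0020, -0.0054 and -0.0045 over all genes. GDF15 against vehicle and pair-fed against vehicle share the vehicle mice, and the comparisons of GDF15 share the GDF15 mice, so their values are not independent of each other.

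**Figure D1:**
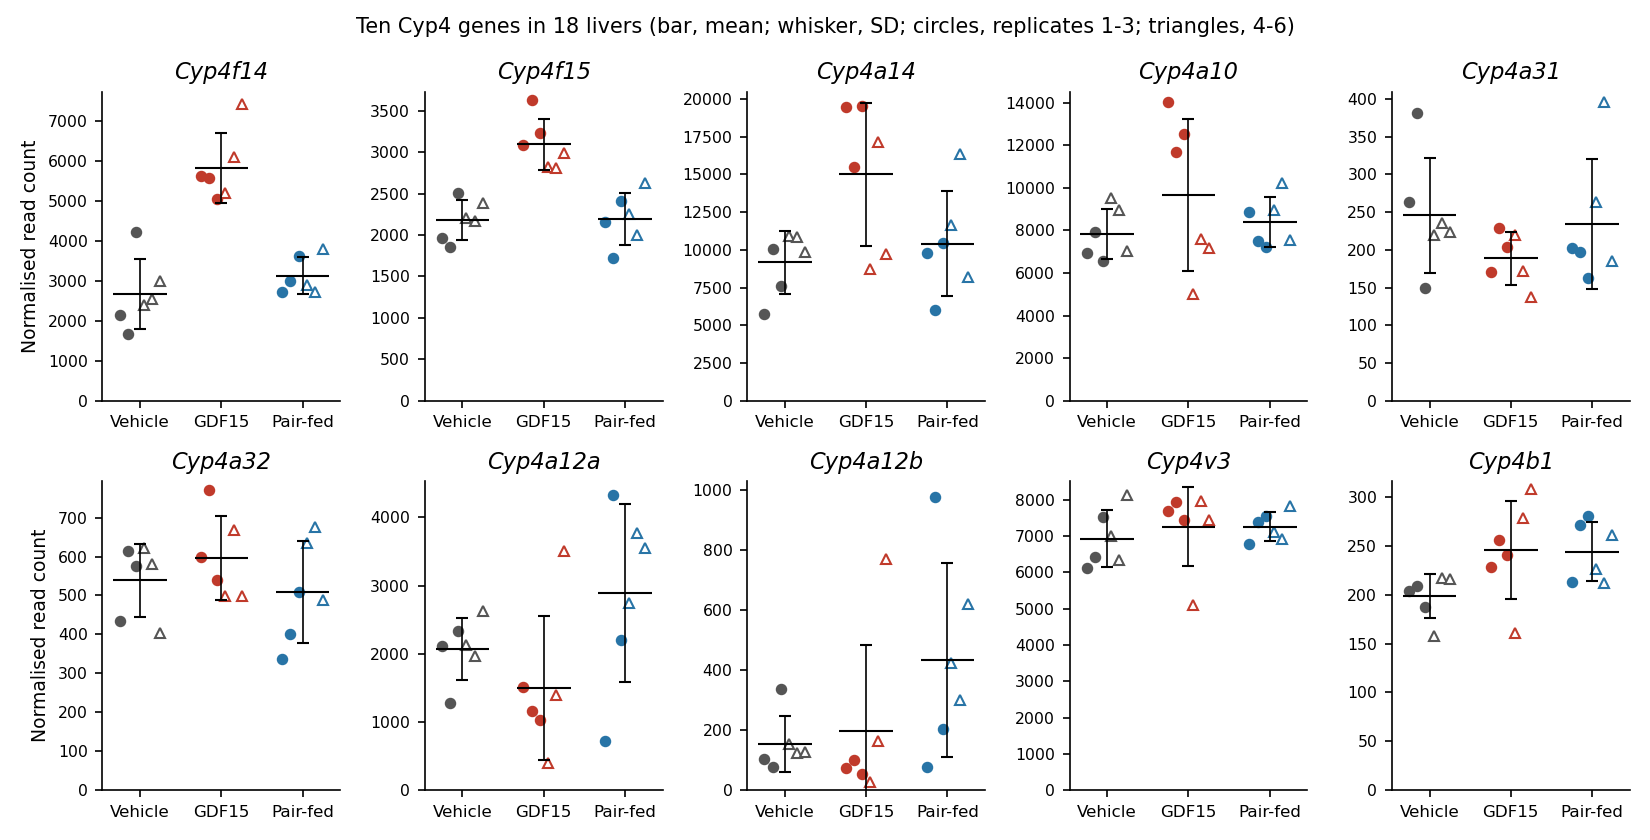
Normalised read counts (vertical axes, each from 0) of the 10 Cyp4 genes in every liver by group, with the mean and SD (n = 6); circles are replicates 1 to 3 and triangles replicates 4 to 6. The GDF15 points lie above every vehicle and pair-fed point for Cyp4f14 and Cyp4f15, and for Cyp4a10 the GDF15 circles and triangles form separate groups.

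**Figure D2:**
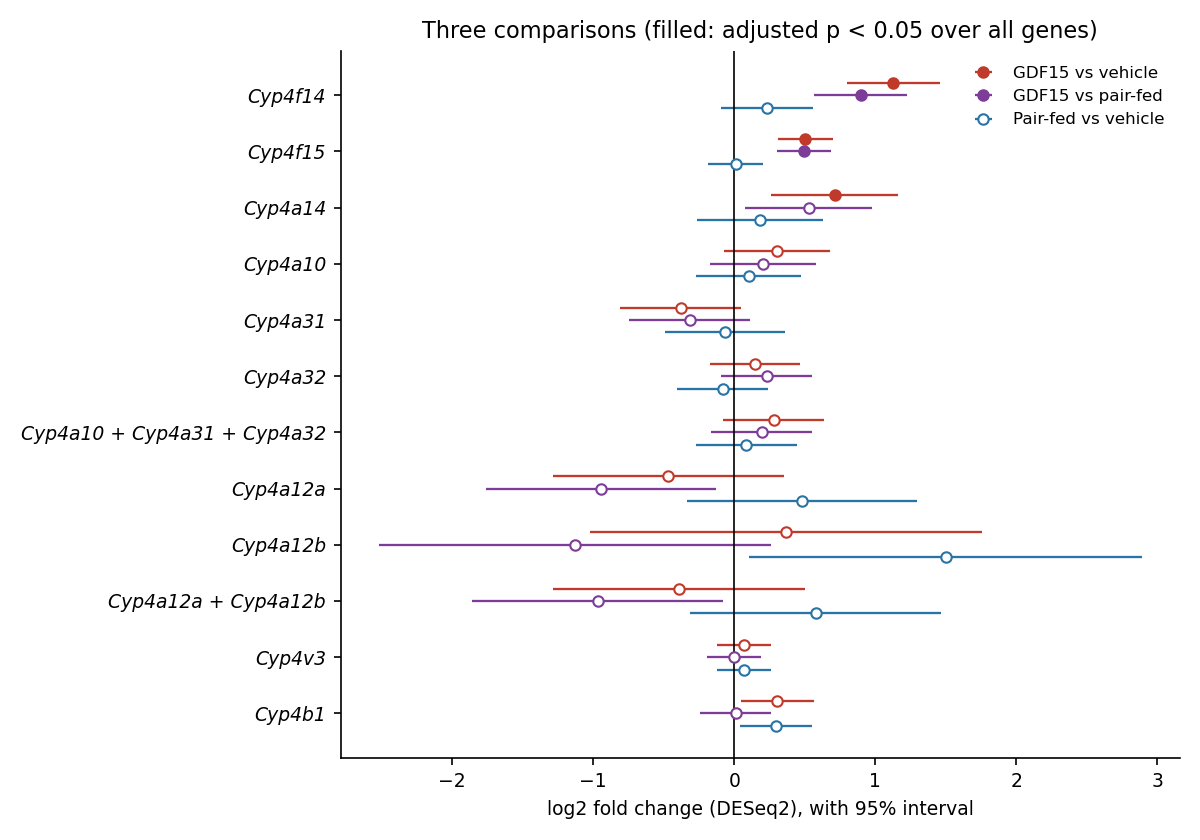
Log2 fold change (horizontal axis) with its 95% interval for each gene and for the sums of near-identical copies, in the 3 comparisons by colour; filled points passed an adjusted p under 0.05 over all genes. Filled points occur for Cyp4f14 (1.13 and 0.90), Cyp4f15 (0.50 and 0.49) and Cyp4a14 (0.71, against vehicle), and Cyp4a12b has the widest intervals.

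Cyp4f14, which hydroxylates leukotriene B4 and the vitamin E side chain, had the largest rise of the genes that passed. It lies on the minus strand at chr17:32905070-32917342 (GRCm38). Its normalised count was 1678 at lowest, 2478 at the median and 4227 at highest in vehicle, 5042, 5604 and 7444 in GDF15, and 2733, 2949 and 3810.5 in pair-fed livers. Each GDF15 liver lay above every vehicle and every pair-fed liver, and the vehicle and pair-fed ranges overlapped. The mean was 2671 ± 879.7 in vehicle, 5836 ± 871 in GDF15 and 3136 ± 470.3 in pair-fed livers (SD, n = 6 each). The log2 fold change was 1.13 ± 0.17 (SE) against vehicle, a fold of 2.19 (adjusted p = 1.0e-09, DESeq2), and 0.90 ± 0.17 against pair-fed, a fold of 1.86 (adjusted p = 2.5e-06). Pair-feeding against vehicle gave 0.23, with a 95% interval of -0.096 to 0.56. With replicates 1 to 3 alone the values were 1.02 (adjusted p = 0.028) against vehicle and 0.80 (adjusted p = 0.095, no longer passing) against pair-fed, and with replicates 4 to 6 alone 1.24 (adjusted p = 2.0e-11) and 1.00 (adjusted p = 2.0e-07), all with DESeq2.

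Cyp4f15, its close relative on the same chromosome (plus strand, chr17:32685627-32703352), rose by less and with little spread. It ranged from 1859.7 to 2502 normalised counts in vehicle with a median of 2191, from 2802 to 3628 with a median of 3037 in GDF15, and from 1720.2 to 2633 with a median of 2204 in pair-fed livers. The lowest GDF15 liver was again above the highest liver of both other groups. The log2 fold change was 0.50 ± 0.099 against vehicle (adjusted p = 6.5e-06, DESeq2) and 0.49 ± 0.099 against pair-fed (adjusted p = 1.3e-05), while pair-fed against vehicle gave 0.0089, with a 95% interval of -0.19 to 0.20. It passed the adjusted p in both comparisons with replicates 1 to 3 alone (0.66 and 0.67) and with replicates 4 to 6 alone (0.35 and 0.33).

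The coding sequences of Cyp4f14 and Cyp4f15 were 82.8% identical over 1563 aligned bases, and 2.72% and 2.45% of their 50-base words, the length of a read, occurred in another annotated gene. The stretch that codes for the heme-binding loop, the part of the enzyme that holds the iron, shows how they differ. It is printed from the GENCODE M21 transcripts as 60 bases from position 1366 of the Cyp4f14 coding sequence (exons 11 and 12, chr17:32905651-32906080, minus strand, with an intron between) and from position 1402 of that of Cyp4f15 (exons 12 and 13, chr17:32702383-32702816, plus strand), with the 7 bases of Cyp4f15 that differ in capitals.
Cyp4f14: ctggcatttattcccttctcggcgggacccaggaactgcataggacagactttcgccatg
Cyp4f15: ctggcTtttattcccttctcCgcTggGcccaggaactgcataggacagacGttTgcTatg

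Because both genes rose, the bases before their starts are shown as well, from the RefSeq promoter table (GRCm38.p6), which held 5 of the 10 genes. The window of Cyp4f14 was chr17:32917343-32917592 on the minus strand, 250 bases, and that of Cyp4f15 was chr17:32685409-32685626 on the plus strand, 218 bases, each ending at the base before the GENCODE start of the gene. The letters searched on both strands were CCAAT (the CCAAT box), TATAAA (the TATA box), AGGTCA (bound by nuclear receptors such as PPAR-alpha), a direct repeat of the last with a single base between, and TTCNNNGAA (the STAT5 site). Capitals mark the matches, a CCAAT on the reverse strand in each, read as ATTGG, lying 64 bases before the start of Cyp4f14 and 46 bases before that of Cyp4f15.
Cyp4f14: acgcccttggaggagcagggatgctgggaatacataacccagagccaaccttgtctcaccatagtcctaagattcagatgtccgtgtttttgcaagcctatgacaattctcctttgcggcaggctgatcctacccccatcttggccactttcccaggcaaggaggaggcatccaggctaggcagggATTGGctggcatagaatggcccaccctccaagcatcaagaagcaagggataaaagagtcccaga
Cyp4f15: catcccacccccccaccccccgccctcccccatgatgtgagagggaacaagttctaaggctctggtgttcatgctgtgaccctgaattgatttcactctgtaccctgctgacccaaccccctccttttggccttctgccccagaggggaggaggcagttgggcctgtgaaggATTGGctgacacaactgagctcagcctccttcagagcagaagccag

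CCAAT occurred in 33.8% of all 250-base windows of the promoter table and in 30.8% of windows of 218 bases, AGGTCA in 14.0% and 12.4%, TATAAA in 12.4% and 9.87%, and TTCNNNGAA in 7.02% and 6.22%. A match in both genes is a description of common letters. Of the other genes held, Cyp4a32, which did not pass over all mice, also had a reverse CCAAT, 80 bases before the end of its window. The windows of Cyp4v3 and Cyp4b1 had none. Cyp4f14 had further, overlapping windows in the promoter table, with the same match.

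The Cyp4f genes of chromosome 17 moved in different directions. Of 10 further Cyp4 genes listed, 6 had counts. In GDF15 against vehicle 1 of them rose and 3 fell, beside 14.3% of all genes tested that rose and 15.8% that fell. Cyp4f13, which neighbours Cyp4f14, rose from 991 ± 84.4 in vehicle to 1374 ± 115 normalised counts in GDF15 (log2 fold change 0.47 ± 0.072, adjusted p = 3.0e-09, DESeq2) and by 0.41 ± 0.072 against pair-fed (adjusted p = 3.8e-07). Cyp4f16, on the far side of Cyp4f15, fell from 91.9 ± 24.0 to 47.4 ± 7.70 (log2 fold change -0.96 ± 0.19, adjusted p = 5.5e-06), and gave -0.61 ± 0.19 against pair-fed (adjusted p = 0.0080). Cyp4f39, an omega-hydroxylase of skin lipids, fell from 9.41 ± 3.05 to 4.28 ± 3.80 (-1.21 ± 0.48, adjusted p = 0.039), and Cyp4f17 gave -0.18 ± 0.16. Cyp4f18, the leukotriene B4 hydroxylase of neutrophils, on chromosome 8, fell from 40.0 ± 10.6 to 18.2 ± 6.23 (-1.14 ± 0.25, adjusted p = 5.6e-05). Cyp4f14 and Cyp4f16 share 29 words of 50 bases.

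**Figure D3:**
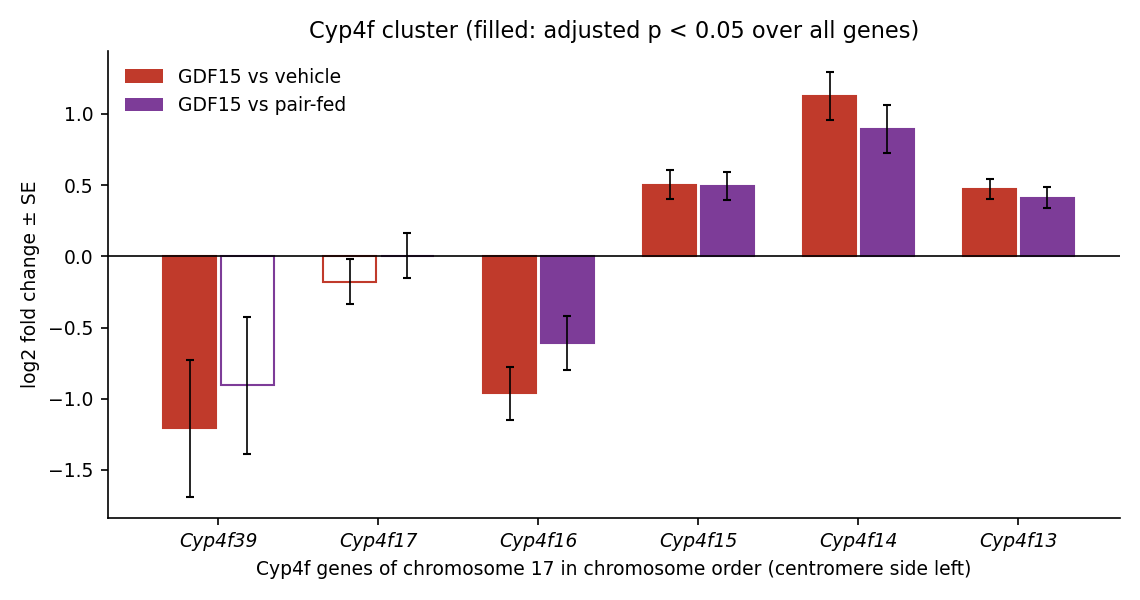
Log2 fold change with its SE (vertical axis) of the 6 Cyp4f genes of chromosome 17 with counts, in chromosome order (horizontal axis), for GDF15 against vehicle and against pair-fed; filled bars passed an adjusted p under 0.05. Cyp4f15, Cyp4f14 and Cyp4f13 lie above 0 in both comparisons, and Cyp4f39 and Cyp4f16 below 0, with the bar of Cyp4f39 against pair-fed unfilled.

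Markers of cell types moved with GDF15 too. Over all genes tested, 14.3% rose and 15.8% fell against vehicle, and 11.8% rose and 12.2% fell against pair-fed. Of 6 hepatocyte markers listed, 5 had counts and 4 of them rose against vehicle, and their summed level was 1413511 to 1830363 in vehicle, 2043840.2 to 2409097 in GDF15 and 1278053 to 2005585 in pair-fed livers. Serpina1c, an alpha-1-antitrypsin gene of hepatocytes, rose by 1.14 ± 0.16 (adjusted p = 1.7e-10, DESeq2), and Fgb, a fibrinogen chain, by 0.73 ± 0.12 (adjusted p = 8.4e-08). Of 6 macrophage and leukocyte markers 5 fell, with summed levels of 3278 to 6621 in vehicle, 2086 to 4308 in GDF15 and 3069 to 5263 in pair-fed livers. Lyz2 gave -1.01 ± 0.22 and Cd68 -0.92 ± 0.19. Of 6 stellate and fibroblast markers 5 fell, with summed levels of 6491 to 11622 in vehicle, 3166 to 4705 in GDF15 and 5786 to 9570.2 in pair-fed livers, led by the collagens Col1a1 (-2.51 ± 0.32) and Col3a1 (-2.21 ± 0.22). All 5 cholangiocyte markers fell, with sums of 2364 to 8622 in vehicle, 1027 to 2087 in GDF15 and 2152 to 5999.8 in pair-fed livers, led by Spp1 (-1.99 ± 0.36) and Epcam (-1.22 ± 0.33). These sums were mostly Spp1, which stood at 4867 ± 2459 in vehicle, with Sox9 next at 156 ± 58.8. Of 5 endothelial markers 1, Clec4g, rose (0.38 ± 0.13), with sums of 2521 to 3397 in vehicle, 1975 to 3633 in GDF15 and 2852 to 3723 in pair-fed livers. Of 3 adipocyte markers with counts 1, Cfd, fell (-3.58 ± 0.46). Their sums were 45.5 to 278 in vehicle, 10.3 to 16.4 in GDF15 and 32.3 to 168 in pair-fed livers. Most of each sum was Cfd, which averaged 119.9 counts in vehicle. Adipoq, the defining transcript of fat cells, averaged 0.335 counts in vehicle and 0.483 in pair-fed livers, and was at 0 in every GDF15 liver. Neither Adipoq (-0.84 ± 2.10) nor Plin1, which lay in the other direction (0.52 ± 0.93), passed against vehicle. Against pair-fed, 4 hepatocyte markers rose and 4 leukocyte, 4 stellate, 1 cholangiocyte and 1 adipocyte markers fell, the last being Cfd (-2.82 ± 0.46, adjusted p = 4.7e-08, DESeq2). The cholangiocyte marker was Spp1 (-1.36 ± 0.36, adjusted p = 0.0013), and Krt19, Krt7, Epcam and Sox9 did not pass. The part of these shifts in the Cyp4 results was not tested, and in bulk tissue fewer cells of a type and less RNA per cell cannot be told apart.

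Cyp4a14, a lauric acid hydroxylase that is strongly inducible through PPAR-alpha, lies on the minus strand at chr4:115486200-115496142. Its normalised count was 5753 at lowest, 9939 at the median and 10939 at highest in vehicle, 8731, 16329.6 and 19534 in GDF15, and 6022, 10129.8 and 16330 in pair-fed livers. Of the GDF15 livers 4 lay above every vehicle liver and 3 above every pair-fed liver, and the other GDF15 livers overlapped those groups. The log2 fold change was 0.71 ± 0.23 against vehicle (adjusted p = 0.0087, DESeq2) and 0.53 ± 0.23 against pair-fed, which missed the threshold (adjusted p = 0.070, 95% interval 0.079 to 0.98). Against pair-fed it passed in 3 of 12 fits that each left out 1 mouse. These were the fits without GDF15 replicate 4 (adjusted p = 0.018), GDF15 replicate 6 (adjusted p = 0.030) and PairFed replicate 5 (adjusted p = 0.0098). The highest adjusted p of the 12 was 0.18 (DESeq2), without PairFed replicate 2. With replicates 1 to 3 alone the values were 1.23 against vehicle (adjusted p = 1.7e-06) and 1.05 against pair-fed (adjusted p = 4.6e-05), and with replicates 4 to 6 alone 0.17 (adjusted p = 0.72) and -0.02 (adjusted p = 0.97).

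Cyp4a10, which prefers lauric acid, divided the GDF15 livers into replicates 1 to 3 and replicates 4 to 6. Its range was 6579 to 9503 normalised counts in vehicle (median 7478), 4999 to 14041 in GDF15 (median 9638) and 7239 to 10243 in pair-fed livers (median 8208). GDF15 replicates 1 to 3 held 11697 to 14041 and lay above every other liver of the study, whereas GDF15 replicates 4 to 6 held 4999 to 7579.7 and lay inside or below the other groups. Over all mice the log2 fold change was 0.31 ± 0.19 against vehicle (adjusted p = 0.22, DESeq2) and 0.20 ± 0.19 against pair-fed (adjusted p = 0.46). Against vehicle it passed in 1 of 12 fits that each left out 1 mouse, without GDF15 replicate 4, the lowest liver (0.44, adjusted p = 0.025). Without GDF15 replicate 1 it was 0.17 (adjusted p = 0.53). With replicates 1 to 3 alone the log2 fold change was 0.84 against vehicle (adjusted p = 3.8e-11) and 0.70 against pair-fed (adjusted p = 6.8e-08). With replicates 4 to 6 alone it was -0.37 (adjusted p = 0.14) and -0.43 (adjusted p = 0.081). The difference between these sets of mice was itself not tested. The first set holds the GDF15 livers already seen to be highest, so its adjusted p values describe those livers and do not test GDF15.

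The level of Cyp4a10 cannot be separated fully from those of Cyp4a31 and Cyp4a32, its neighbours on the plus strand of chromosome 4. Cyp4a10 lies at chr4:115518264-115533649, Cyp4a31 at chr4:115563649-115579015 and Cyp4a32 at chr4:115600969-115621602. The coding sequence of Cyp4a10 was 96.6% identical to that of Cyp4a31 and 97.2% to that of Cyp4a32, with 52 and 43 differing bases of 1527. Of 50-base words, 30.5% of those of Cyp4a10, 21.8% of those of Cyp4a31 and 46.8% of those of Cyp4a32 occurred in another gene. Cyp4a12a and Cyp4a12b were 98.7% identical, with 20 differing bases, and shared 1160 words, 48.9% and 49.4% of each. Cyp4a14 was 78.0% identical to Cyp4a10, and 0.245% of its words occurred in another gene. The 60 bases that code for the heme-binding loop are read as above from position 1330 of the Cyp4a10 coding sequence. They show which copies a single read inside them cannot tell apart, with the bases that differ from Cyp4a10 in capitals. The read from the other end of a fragment may still differ between copies. In each gene the stretch spans exons 11 and 12, at chr4:115529487-115532558 in Cyp4a10 and chr4:115487284-115489820 (minus strand) in Cyp4a14.
Cyp4a10: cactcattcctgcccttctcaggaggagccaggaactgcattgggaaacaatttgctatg
Cyp4a31: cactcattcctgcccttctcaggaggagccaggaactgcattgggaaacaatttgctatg
Cyp4a32: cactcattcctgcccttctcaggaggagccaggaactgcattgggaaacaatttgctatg
Cyp4a14: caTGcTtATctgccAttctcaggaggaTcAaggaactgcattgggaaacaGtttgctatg
Cyp4a12a: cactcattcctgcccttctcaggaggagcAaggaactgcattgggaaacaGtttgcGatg
Cyp4a12b: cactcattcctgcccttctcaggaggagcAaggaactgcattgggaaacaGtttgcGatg

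Cyp4a10, Cyp4a31 and Cyp4a32 were the same over all 60 bases, Cyp4a12a and Cyp4a12b differed from them by the same 3 bases, and Cyp4a14 differed by 9. Over all mice neither lesser copy of Cyp4a10 passed the test, and neither did the sum. Cyp4a31 ranged from 150.1 to 381 normalised counts in vehicle, 137 to 229 in GDF15 and 162 to 396 in pair-fed livers, with a log2 fold change of -0.38 ± 0.22 against vehicle (adjusted p = 0.17, DESeq2) and -0.32 ± 0.22 against pair-fed (adjusted p = 0.29). Cyp4a32 ranged from 404 to 622, 498 to 772 and 337 to 677, with 0.15 ± 0.16 (adjusted p = 0.53) and 0.23 ± 0.16 (adjusted p = 0.31). The sum of Cyp4a10, Cyp4a31 and Cyp4a32 averaged 8611 ± 1264 in vehicle, 10454 ± 3614 in GDF15 and 9139 ± 1318 in pair-fed livers, and its log2 fold change was 0.28 ± 0.18 against vehicle (adjusted p = 0.24, 95% interval -0.077 to 0.64) and 0.19 ± 0.18 against pair-fed (adjusted p = 0.46). Without GDF15 replicate 4 the sum gave 0.41 against vehicle (adjusted p = 0.033). That was the only pass against vehicle among 12 fits that each left out 1 mouse. With replicates 1 to 3 alone the sum passed against vehicle (0.78, adjusted p = 2.2e-10) and against pair-fed (0.68, adjusted p = 3.5e-08), and with replicates 4 to 6 alone it gave -0.34 (adjusted p = 0.17) and -0.42 (adjusted p = 0.086). Cyp4a32 passed against pair-fed with replicates 1 to 3 alone (0.62, adjusted p = 0.011) and gave -0.11 with replicates 4 to 6 alone (adjusted p = 0.78). The share of Cyp4a10 in the sum was 90.8% ± 1.20 in vehicle, 91.8% ± 2.76 in GDF15 and 91.9% ± 1.36 in pair-fed livers.

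Cyp4a12a and Cyp4a12b, the male-predominant arachidonic acid hydroxylases, had the highest coefficients of variation of the 10 genes in GDF15 and in pair-fed livers, and in vehicle Cyp4a12b but not Cyp4a12a did. They lie on the plus strand at chr4:115299046-115332815 and chr4:115411624-115439034. The normalised count of Cyp4a12a was 1278 at lowest, 2118 at the median and 2623 at highest in vehicle, 394, 1278 and 3513 in GDF15, and 728, 3155 and 4333 in pair-fed livers. The groups overlapped, since GDF15 replicate 6 was higher than every vehicle liver and PairFed replicate 1 was lower than every vehicle liver. Cyp4a12b held 76.1, 125 and 337 counts in vehicle, 27.0, 87.9 and 771 in GDF15, and 77.6, 363 and 977 in pair-fed livers. The same GDF15 liver, replicate 6, was highest of its group, and PairFed replicate 2 was highest of all. The coefficient of variation of Cyp4a12a was 21.8% in vehicle, 70.7% in GDF15 and 45.1% in pair-fed livers, and that of Cyp4a12b was 60.9%, 143% and 74.7%, while that of Cyp4f15 was between 9.96% and 14.4%.

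Summed, the pair averaged 2228 ± 501 in vehicle, 1699 ± 1336 in GDF15 and 3324 ± 1578 in pair-fed livers. The log2 fold change of the sum was -0.39 ± 0.45 against vehicle (adjusted p = 0.54, DESeq2) and -0.97 ± 0.45 against pair-fed (adjusted p = 0.097), and pair-fed against vehicle gave 0.58 ± 0.45 (95% interval -0.31 to 1.47). None of these passed, and single mice decided the call against pair-fed. Without GDF15 replicate 6 the log2 fold change of the sum was -1.49 (adjusted p = 0.0019), that of Cyp4a12a -1.40 (adjusted p = 0.0029) and that of Cyp4a12b -2.37 (adjusted p = 0.00059). Without PairFed replicate 1 the sum gave -1.17 (adjusted p = 0.026) and Cyp4a12a -1.15 (adjusted p = 0.023). Of 12 such fits against pair-fed, the sum and Cyp4a12a passed in 2 each and Cyp4a12b in 1. Without PairFed replicate 2 the adjusted p (DESeq2) was 0.24 for the sum, 0.21 for Cyp4a12a and 0.52 for Cyp4a12b. With all mice, Cyp4a12a gave -0.47 ± 0.42 against vehicle and -0.95 ± 0.42 against pair-fed (adjusted p = 0.075), and Cyp4a12b gave 0.37 ± 0.71 and -1.13 ± 0.71 (adjusted p = 0.24). Without GDF15 replicate 6 the value of Cyp4a12b against vehicle was -0.88 (adjusted p = 0.26), the opposite sign to that over all mice. With replicates 1 to 3 alone Cyp4a12b gave -1.17 against vehicle (adjusted p = 0.42) and -2.45 against pair-fed (adjusted p = 0.049, passing), and with replicates 4 to 6 alone 1.24 (adjusted p = 0.41) and -0.48 (adjusted p = 0.80).

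The share of Cyp4a14 in all Cyp4a counts was 45.4% ± 4.73 in vehicle, 55.2% ± 6.42 in GDF15 and 44.8% ± 7.94 in pair-fed livers. That of the Cyp4a12 pair was 11.4% ± 3.38 in vehicle, 6.69% ± 6.43 in GDF15 and 14.8% ± 8.00 in pair-fed livers. The share of Cyp4a12b in its pair was 6.71% ± 3.01 in vehicle, 8.76% ± 5.00 in GDF15 and 12% ± 4.23 in pair-fed livers. These shares overlapped between groups and were not tested.

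**Figure D4:**
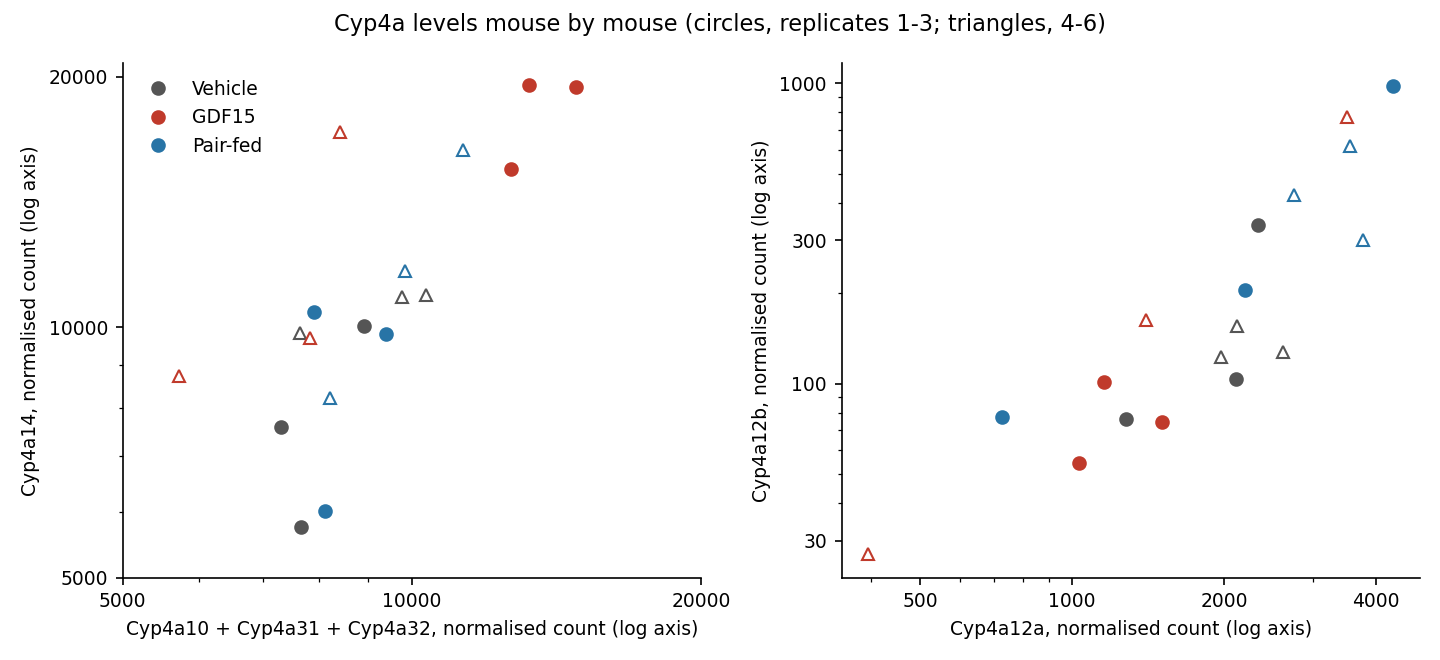
Each point is 1 liver, on log axes of normalised counts. On the left, Cyp4a14 is plotted against the sum of Cyp4a10, Cyp4a31 and Cyp4a32, and on the right Cyp4a12b against Cyp4a12a; colours are groups, circles replicates 1 to 3 and triangles replicates 4 to 6. GDF15 replicates 1 to 3 lie at the right of the left panel, and on the right panel GDF15 replicate 6 lies apart from the other GDF15 mice.

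Levels of a mouse relative to its own group were compared over 21 pairs of 7 items, the 2 sums and the 5 other genes, on the scale of log2(normalised count + 1). In 1 pair the Pearson correlation passed the correction. The sum of Cyp4a10, Cyp4a31 and Cyp4a32 and the level of Cyp4a14 had a Pearson r of 0.77 over 18 mice (permutation p = 0.00014, adjusted p = 0.0029) and a Spearman rho of 0.73 (permutation p = 0.0028, adjusted p = 0.054). Without the 2 mice farthest from the median of the sum r was 0.70 (permutation, adjusted p = 0.048), and it was 0.52 within replicates 1 to 3 and 0.78 within replicates 4 to 6 (9 mice each, not tested). Cyp4f14 and Cyp4f15 had an r of 0.57 and a rho of 0.52 (permutation, adjusted p = 0.088 for r), and the Cyp4a12 sum and Cyp4f14 an r of 0.48 and a rho of 0.56 (permutation, adjusted p = 0.087 for r). By Spearman's rho 0 of 21 pairs passed the correction.

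Over the same 18 mice, the genes most like each item among 10873 others with a mean of at least 50 normalised counts are given as a description. All genes of a mouse share its library and depth. For the Cyp4a10 sum they were Hsd17b11, a dehydrogenase of lipid droplets (r = 0.96), Acadm, the medium-chain acyl-CoA dehydrogenase of mitochondria (0.89), and Cebpe (0.89). For Cyp4a14 they were Dtnbp1 (0.90), Gabarapl1, an autophagy gene (0.86), and Cyp3a25, another cytochrome P450 (0.84). The Cyp4a12 pair was most like Cyp2d9 (0.86) and Cyp7b1 (0.83), both male-biased liver P450 genes, and Rap2a (0.81). Cyp4f14 was most like Serpina1c (0.92), Slc22a28 (0.92) and Rgn (0.91). Cyp4f15 was most like Hpd (0.93) and Gstz1 (0.90), enzymes of tyrosine breakdown, and Bphl (0.90). For Cyp4v3 they were Ecm1 (0.88), Angptl6 (0.87) and Fcna (0.87), and for Cyp4b1 Vipr1 (0.84), Gucy1b1 (0.82) and Colec10 (0.82).

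Cyp4v3 and Cyp4b1 did not pass the test in any comparison. Cyp4v3, a hydroxylase of medium-chain fatty acids (minus strand, chr8:45304944-45333216), ranged from 6118 to 8142 normalised counts in vehicle, 5091 to 7978 in GDF15 and 6788 to 7827 in pair-fed livers, and 7.02% of its 50-base words also occur in the overlapping gene Gm45753. Its log2 fold change was 0.068 ± 0.098 against vehicle (95% interval -0.12 to 0.26) and 0.00019 ± 0.098 against pair-fed (-0.19 to 0.19). Cyp4b1, which acts on short-chain fatty acids and foreign compounds (minus strand, chr4:115624725-115647723), ranged from 158 to 217 in vehicle, 161 to 309 in GDF15 and 212 to 281 in pair-fed livers. Of the GDF15 livers 5 lay above every vehicle liver, and 4 of the pair-fed livers did as well. The log2 fold change was 0.31 ± 0.13 against vehicle (adjusted p = 0.056, DESeq2) and 0.0093 ± 0.13 against pair-fed, and pair-fed against vehicle gave 0.30 ± 0.13 (adjusted p = 0.998, DESeq2). Against vehicle Cyp4b1 passed in 1 of 12 fits that each left out 1 mouse, without GDF15 replicate 4 (0.40, adjusted p = 0.0024, DESeq2). Without GDF15 replicate 6 it gave 0.23 (adjusted p = 0.17).

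Genes of the reactions around omega-hydroxylation are described with DESeq2 values of GDF15 against vehicle unless stated. Over all genes tested, 14.3% rose and 15.8% fell in that comparison, and 11.8% rose and 12.2% fell against pair-fed. Of 4 genes that pass electrons to P450 enzymes 1 passed the test. Por, the reductase that serves every microsomal P450, rose from 4092 ± 759 to 8143 ± 3518 normalised counts (log2 fold change 0.99 ± 0.35, adjusted p = 0.019), and against pair-fed it gave 0.70 ± 0.35 (adjusted p = 0.13). Of 5 alcohol and aldehyde dehydrogenases with counts 2 rose and 1 fell in both comparisons. Aldh3a2, the fatty aldehyde dehydrogenase that follows omega-hydroxylation, fell from 17599 ± 1507 to 11633 ± 2229 (-0.60 ± 0.11, adjusted p = 9.5e-07), and Adh4 rose from 1852 ± 357 to 2698 ± 160 (0.54 ± 0.11, adjusted p = 8.4e-06). Of 13 genes of peroxisomal dicarboxylate oxidation 0 rose and 6 fell, with a median of -0.16. Acaa1b, a peroxisomal thiolase, gave -0.64 ± 0.11 (adjusted p = 3.3e-07) and Pex11a, a peroxisome division gene, -0.41 ± 0.16 (adjusted p = 0.035).

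Ppara itself did not pass the test, at 1976 ± 316 normalised counts in vehicle, 2169.7 ± 313 in GDF15 and 2219 ± 362 in pair-fed livers (0.14 ± 0.13 for GDF15 against vehicle, adjusted p = 0.44, DESeq2). Of 10 genes of PPAR-alpha and its partners 5 rose and 1 fell, beside 14.3% of all genes tested that rose and 15.8% that fell. Lpin1, a coactivator of the receptor, gave 1.32 ± 0.41 (adjusted p = 0.0064), and Pparg, the sister receptor of fat cells, -1.05 ± 0.11 (adjusted p = 1.5e-18). Of 19 other PPAR-alpha targets 1 rose and 6 fell, with a median of -0.070 beside -0.0020 over all genes tested. Pdk4, which limits glucose oxidation, gave -1.41 ± 0.45 (adjusted p = 0.0083), and Acot2, a mitochondrial acyl-CoA thioesterase, -1.21 ± 0.26 (adjusted p = 3.8e-05). Of 8 male-biased growth hormone targets 4 rose and 1 fell. The largest rises were those of the steroid enzyme Hsd3b5 (5.28 ± 1.21) and the organic anion transporter Slco1a1 (3.25 ± 0.82). Hsd3b5 stood at 13.2 ± 22.9 normalised counts in vehicle and 513 ± 919 in GDF15, and Slco1a1 at 383 ± 553 and 3650 ± 3692. Each of these SDs exceeded its mean, so livers of a group differed widely. Mup20, which fell, gave -0.75 ± 0.21 (adjusted p = 0.0026, DESeq2). Against pair-fed, 5 peroxisomal genes fell, and 4 partner genes rose and 1 fell. Of the other targets 1 rose and 6 fell there, and of the male-biased genes 3 rose and 1 fell, beside 11.8% and 12.2% of all genes tested. In pair-fed against vehicle 0 genes of these lists passed with DESeq2, as for all genes.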

How the data were processed

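Liver RNA libraries (NEBNext Ultra II Directional, reads of 50 bases at both ends) were trimmed with Trim Galore and quantified with Salmon by the authors, who deposited Salmon's estimated counts summed to gene symbols, as whole numbers, with mm10 named as the build in the submitters' notes. Versions and the transcript annotation are not given in the sources used here. The lowest row total was 5, so rarer genes were not analysed here. Salmon divides reads that fit several transcripts, so near-identical copies were also summed and the whole table refitted.

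Groups and replicate numbers came from the sample titles, and nothing states more on how the 6 mice of a group differ. The counts were fitted with DESeq2 1.42.0 in R 4.3.3 (Wald test, all 18 samples, group as the only factor, median-of-ratios scaling, independent filtering). A gene passed at a Benjamini-Hochberg adjusted p under 0.05 over all genes and was called if its absolute log2 fold change was also above 1, the thresholds of the study. Intervals are the log2 fold change ± 1.96 SE. The quasi-likelihood test of edgeR 4.0.16 with TMM scaling and its filter, which kept 12992 genes, was an alternative, with those of the closing section. Both tools were tested on simulated data. Correlations used deviations from group means of log2(normalised count + 1), shuffled within groups 100000 times (two-sided), with a minimum mean of 50. Positions, transcripts and shared words of 50 bases came from GENCODE M21 (GRCm38, the assembly also called mm10), using the longest coding transcript of each gene and a global alignment of coding sequences.

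The members, gene lists and tests were chosen with earlier results of these data known. The text names the members and their sums, Ppara and Por, and of each other list at most the 2 genes with the largest change among those that passed, or the 2 of highest mean if none did; genes added beyond that rule were chosen after their values were seen. A list of female-biased genes is not reported here. The lowest normalised count of a member in any library was 27.0, and errors are SDs over mice or SEs of the fit.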

Additional observations from a re-analysis of the deposited data

Results flagged for a closer look

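In groups of 6 mice, a sample was noted when its gap to the nearest other sample was larger than Dixon's 95% critical share of the range. Of 36 groups examined, 5 held such a sample, where chance alone gives about 1 in 20 groups, or 1.8, if values are normally distributed. The groups include the sums of near-identical copies beside the genes summed. They are therefore not independent, and the difference between 5 and 1.8 was not tested. Cyp4a12a stood at 3513 normalised counts in GDF15 replicate 6, and the next GDF15 liver stood at 1506. Cyp4a12b stood at 771 in the same liver, with 162 in the next, so that the sum of both genes was 4285 there, with 1581 in the next. Cyp4a12b stood at 337 in Vehicle replicate 3, with 155 in the next vehicle liver. Cyp4v3 stood at 5091 in GDF15 replicate 4, and the next lowest GDF15 liver stood at 7439. GDF15 replicate 4 was also the lowest liver of its group for Cyp4a10, Cyp4a12a, Cyp4a12b, Cyp4a14 and Cyp4b1.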

How the results depend on the processing

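With edgeR, TMM scaling in DESeq2, a low-count filter (10 counts or more in 6 or more libraries), DESeq2 without its independent filtering, or a fit of the 12 samples compared, the counts of genes and sums called and the side of the threshold of every gene and sum stayed the same in the 3 comparisons. With no fold-change threshold, 3 genes passed for GDF15 against vehicle in place of 1, and 2 for GDF15 against pair-fed in place of 0. With replicates 1 to 3 alone, 2 genes were called against vehicle (Cyp4f14 and Cyp4a14) and 2 against pair-fed (Cyp4a14 and Cyp4a12b). Leaving out 1 mouse at a time gave 1 to 1 genes called for GDF15 against vehicle, 0 to 2 for GDF15 against pair-fed and 0 to 0 for pair-fed against vehicle, and 0 to 0, 0 to 1 and 0 to 0 sums. The changes came from GDF15 replicate 6, whose removal called Cyp4a12a and Cyp4a12b (2 genes, 1 sum), and PairFed replicate 1, whose removal called Cyp4a12a (1 gene, 1 sum). The correlation count stayed at 1 without the 2 farthest mice and with TMM-scaled log2 CPM. Over all genes and sums, 698 alternative values kept their side of the threshold, 19 passed newly and 3 no longer passed. The last include Cyp4a14 against vehicle with replicates 4 to 6 alone and Cyp4f14 against pair-fed with replicates 1 to 3 alone. No value that passed changed sign.

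Same-numbered mice of different groups had correlations of -0.26 to 0.60 of their deviations. In the 3 comparisons 2, 3 and 4 of 6 exceeded 0.1, and few correlated best with their own number (0, 2 and 1). The mean was -0.034, 0.028 and 0.20 for same-numbered mice, beside 0.0091, -0.0055 and -0.041 for mice of other numbers. Whether the numbers pair the mice was not tested. With the replicate number as a block the calls were 1, 0 and 0 genes and 0 sums, as without it, with the adjusted p (DESeq2) of Cyp4a14 against vehicle at 0.051 and that of Cyp4b1 at 0.035, and 885 of all genes were called against vehicle in place of 920. Precision was lowest for Cyp4a12b, whose SE was 0.71 on the log2 scale.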
